A study of Mus musculus with 2 samples.

Results

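The 5 hairpins described here are mouse microRNA precursors whose hosts or neighbours are imprinted genes: Mir335, Mir675, Mir483, Mir296 and Mir298. They were chosen by symbol, matched by Ensembl gene ID, and make up 5 of the 2202 hairpins of GENCODE M21 that were counted. The rule uses no measured value, although it was written with earlier results of these data known. The hairpins of 2 larger imprinted clusters, Dlk1-Dio3 and Sfmbt2, are not among them. MicroRNA reads were counted in heart tissue of female B6CASTF1/J mice, which are F1 hybrids of C57BL/6J and CAST/EiJ, aged 25 days. There is 1 group with 2 libraries, biological replicates 2 and 1, with no treatment, mutation or control group. The labels number the animals separately but give both the same donor identifier, so the spread between replicates is taken as that between animals on the labels' word and may be technical. Replicate 2 had 2661090 hairpin counts and replicate 1 had 2050498, and levels are given as CPM, the count of a hairpin scaled to these sums.

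Imprinted genes are transcribed mainly from the allele of 1 parent, and a microRNA cut from an imprinted transcript follows that transcript's parental bias. Mest, which encodes a hydrolase-like protein, and Igf2, a fetal growth factor, are expressed from the paternal allele, while H19, a long noncoding RNA, is expressed from the maternal allele. Nespas is a paternally expressed antisense transcript of the Gnas locus, which encodes a G protein alpha subunit, and Mir296 and Mir298 lie downstream of it. H19 and Igf2 are neighbours whose expression is coupled through a shared imprinting control region, and in mouse organs both are known to be high before birth and low afterwards. The counts were not split by allele, so the parental origin of the microRNAs was not analysed here.

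Each hairpin carries 1 mature arm on its 5′ side and another on its 3′ side. The 10 mature sequences of RefSeq (GRCm38.p6) are shown because they are what the counted reads stand for, in order of their host, with the seed (bases 2 to 8) in capitals.
mmu-miR-335-5p: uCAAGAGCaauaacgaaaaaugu
mmu-miR-335-3p: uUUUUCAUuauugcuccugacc
mmu-miR-675-5p: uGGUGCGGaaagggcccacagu
mmu-miR-675-3p: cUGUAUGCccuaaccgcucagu
mmu-miR-483-5p: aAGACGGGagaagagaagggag
mmu-miR-483-3p: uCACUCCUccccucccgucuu
mmu-miR-296-5p: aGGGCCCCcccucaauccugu
mmu-miR-296-3p: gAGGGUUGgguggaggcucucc
mmu-miR-298-5p: gGCAGAGGagggcuguucuuccc
mmu-miR-298-3p: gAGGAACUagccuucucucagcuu
The 10 arms have 10 different seeds, so no 2 of these hairpins form a seed family. None of the 10 seeds occurs in an arm of another hairpin among the 1738 mature arms of that table, where 32.0% of arms share their seed with another hairpin. No member holds a stretch of 18 bases found in another counted hairpin on either strand, against 53.5% of all 2202 hairpins. Among the 288 hairpins detected (at least 10 counts in both libraries) the share was 31.6%. The longest exact stretch shared with another hairpin was 14 bases for Mir335, 13 for Mir483, 12 for Mir296 and Mir298, and 11 for Mir675.

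The whole hairpins of Mir335 and Mir675, the highest and the lowest of the 5 by mean CPM, are given with both mature arms in capitals.
Mir335 hairpin: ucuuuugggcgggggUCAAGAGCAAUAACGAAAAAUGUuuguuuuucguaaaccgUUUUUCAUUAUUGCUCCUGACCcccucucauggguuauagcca
Mir675 hairpin: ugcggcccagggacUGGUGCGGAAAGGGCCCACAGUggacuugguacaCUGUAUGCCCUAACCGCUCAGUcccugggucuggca
The Mir335 hairpin has 98 bases and a GC content of 42.9%, the lowest of the 5. Mir675 has 84 bases and 63.1% GC, and its predicted minimum free energy of -56.0 kcal/mol is the lowest of the 5. GC contents of Mir296 (63.3%), Mir483 (58.9%) and Mir298 (53.7%) also lie above the median of all hairpins, 50.8%. Per base, predicted energies were lower than the median over all hairpins, -0.369 kcal/mol, at each of the 5, from -0.452 kcal/mol for Mir335 to -0.667 kcal/mol for Mir675.

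The hairpins sit at 3 loci of mm10. Mir335 (ENSMUSG00000065501.1, chr6:30741299-30741396, plus strand) lies in an intron of 7 of the 11 annotated transcripts of Mest and in no exon of that gene. Mir675 (ENSMUSG00000076275.1, chr7:142577064-142577147, minus strand) lies in an exon of 3 of the 7 transcripts of H19 and in an intron of 1. Mir483 (ENSMUSG00000070140.1, chr7:142654924-142654996, minus strand) lies in an intron of 7 of the 9 transcripts of Igf2, 77777 bp from Mir675. Mir298 (ENSMUSG00000065410.1, chr2:174267504-174267585) and Mir296 (ENSMUSG00000065521.1, chr2:174267047-174267125), both on the minus strand, lie 379 bp apart and overlap no other annotated gene. The nearest gene on their strand is Nespas, which ends 13652 bp upstream of Mir298. All 5 lie on the strand of their host or nearest locus transcript, and their opposite-strand count was 0 in both libraries.

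Among the 5 hairpins, 4 were detected in both hearts, and Mir335 in Mest supplied most of the counts. Mir335 had 4594 counts (1726 CPM, exact 95% interval 1677 to 1777) in replicate 2 and 2539 counts (1238 CPM, 1191 to 1287) in replicate 1. Its mean was 1482 ± 345 CPM (SD, n = 2). By counted reads Mir335 ranked 43 of 2202 hairpins in replicate 2 and 60 in replicate 1. The intervals of the 2 libraries do not overlap, and replicate 2 was the higher. The microRNA is best known from human breast cancer cells, where miR-335 was described as a suppressor of metastasis. For reference, 13.1% of all hairpins were detected by the same rule.

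Mir483, in the intron of Igf2, was the next in level. It had 332 counts (125 CPM) in replicate 2 and 286 counts (139 CPM) in replicate 1, with a mean of 132 ± 10.4 CPM (SD, n = 2). The exact intervals, 112 to 139 CPM in replicate 2 and 124 to 157 CPM in replicate 1, overlap. Mir675, cut from H19 in the same domain, had 1 count in replicate 2 and 3 counts in replicate 1, or 0.376 and 1.46 CPM. A level of 3 counts is 1.13 CPM in replicate 2 and 1.46 CPM in replicate 1, so Mir675 stood at or below that floor in both hearts. The H19 hairpin therefore gave 0.300% of the Mir675 and Mir483 counts in replicate 2 (exact 95% limits of 0.00760 and 1.66) and 1.04% in replicate 1 (0.215 and 3.00). The exact two-sided Fisher test did not separate the libraries (p = 0.342, adjusted over 2 pairs 0.543), and with so few Mir675 counts little could be detected. In mouse placenta, release of miR-675 from H19 is known to restrain growth, whereas miR-483 is known for its co-expression with its host Igf2.

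**Figure D1:**
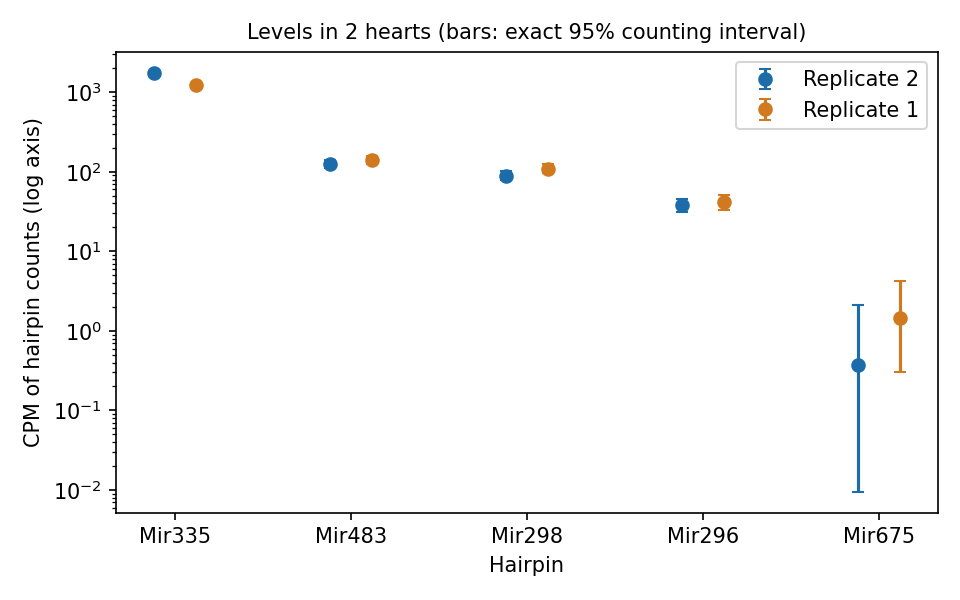
Level of each hairpin in CPM of hairpin counts on a log axis, by library, with exact 95% counting intervals as bars. Mir335 sits at 1726 and 1238 CPM, 3 hairpins lie between 38.0 and 139 CPM in both libraries, and the intervals of Mir675 reach up to only 2.09 and 4.28 CPM.

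The Gnas locus pair was detected in both hearts, with Mir298 above Mir296. Mir298, described in mouse cells as a regulator of the beta-secretase Bace1, had 237 counts (89.1 CPM) in replicate 2 and 225 counts (109.7 CPM) in replicate 1. Its mean was 99.4 ± 14.6 CPM (SD, n = 2). Mir296, studied in human endothelial cells for a role in vessel growth, had 101 counts (38.0 CPM) in replicate 2 and 85 counts (41.5 CPM) in replicate 1, with a mean of 39.7 ± 2.47 CPM (SD, n = 2). Each hairpin's intervals in the 2 libraries overlap.

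The proportion within the Gnas pair was close in the 2 hearts. Mir296 made up 29.9% of the pair's counts in replicate 2, with an exact 95% interval of 25.1 to 35.1, and 27.4% in replicate 1, with 22.5 to 32.8. The mean was 28.7% ± 1.74 (SD, n = 2). The odds ratio of replicate 2 over replicate 1 was 1.13, and the exact two-sided Fisher test did not separate the libraries (p = 0.543, adjusted over 2 pairs 0.543). This proportion does not depend on how the libraries are scaled. It concerns 2 separate hairpins 379 bp apart, and the hairpin counts do not separate the 5′ from the 3′ arm.

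The order of mean CPM was Mir335, Mir483, Mir298, Mir296 and Mir675. In counts Mir335 exceeded Mir483 by 13.8 times in replicate 2 and 8.88 times in replicate 1. Mir483 exceeded Mir298 by 1.40 and 1.27 times in replicates 2 and 1, and their intervals are apart in replicate 2 but overlap in replicate 1. All other neighbours in this order had exact intervals apart in both libraries. These intervals cover counting error only. Whether different hairpins are captured equally in a library was not tested, so the order is one of counts. The order is the same for CPM per 100 bases of hairpin, where Mir335 had 1762 in replicate 2 and 1264 in replicate 1, and Mir483 had 171 and 191. Lengths run only from 73 to 98 bases, and Mir483 is shorter than Mir298. The division could therefore hardly change the order and adds no separate support for it.

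**Figure D2:**
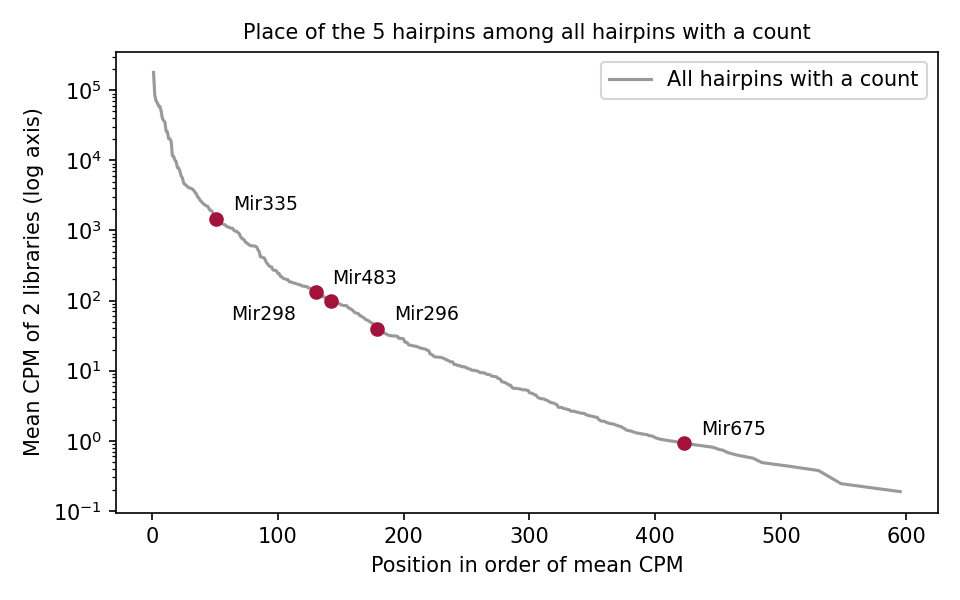
Mean CPM of the 2 libraries on a log axis against position in the order of mean CPM, for all hairpins with at least 1 count (grey line), with the 5 hairpins as points. Mir335 is at position 51, Mir483, Mir298 and Mir296 are at 130, 142 and 179, and Mir675 is at 423.

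Taken over all hairpin counts, which leave out reads matching several places, the 5 hairpins were a small part of the total. They held 0.198% of the counts in replicate 2 (exact 95% limits of 0.192 and 0.203) and 0.153% in replicate 1 (0.148 and 0.158), with a mean of 0.175% ± 0.0317 (SD, n = 2). Without Mir335 the other 4 held 0.0252% in replicate 2 (0.0233 to 0.0272) and 0.0292% in replicate 1 (0.0269 to 0.0316), so the higher share of replicate 2 came from Mir335. Mir335 made up 87.3% of the 5 hairpins' counts in replicate 2 (86.3 to 88.1) and 80.9% in replicate 1 (79.5 to 82.3). Mir483 made up 6.31% in replicate 2 and 9.11% in replicate 1, and Mir298 4.50% and 7.17%. The intervals of these 3 shares do not overlap between the libraries, while those of Mir296, 1.92% and 2.71%, do. The shares add up to the whole, so a higher Mir335 lowers the others, and the CPM intervals of Mir483 and of Mir298 overlap between the libraries.

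**Figure D3:**
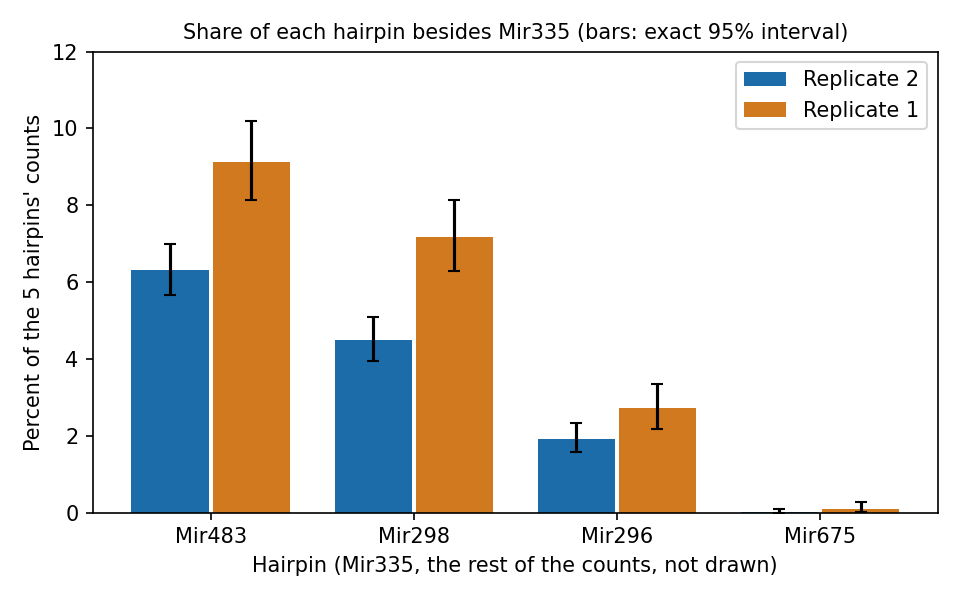
Percent of the 5 hairpins' counts taken by each hairpin other than Mir335, in replicate 2 (blue) and replicate 1 (orange), with exact 95% intervals as bars. Mir483, Mir298 and Mir296 take 6.31%, 4.50% and 1.92% in replicate 2 and 9.11%, 7.17% and 2.71% in replicate 1, and Mir675 is near 0 in both.

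The libraries were also compared hairpin by hairpin, which asks how much the same hairpin differed between the animals. The exact binomial test used compares 2 libraries and not conditions, and its p-value does not allow for the spread between animals. Of the 4 members with at least 10 counts in a library, 1 passed the test after Benjamini-Hochberg adjustment, against 62.6% of the 326 hairpins tested. The 1 called member was higher in replicate 2, as were 36.2% of all tested hairpins, and 0 members were called lower, against 26.4%. Mir335 was higher in replicate 2, with 1870 TMM-scaled CPM there and 1143 in replicate 1 (log2 ratio 0.71, counting SE 0.04, adjusted exact binomial p = 2.01e-90). Its ratio was above 0 under each of the 8 other settings tried, from 0.48 with library sums to 0.71. Its size stood at percentile 59.5 of the absolute log2 ratios of all tested hairpins, whose median was 0.56, and the coefficient of variation between the libraries beyond counting error was 0.467. In tissue, fewer cells that make a microRNA and less of it per cell cannot be told apart.

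The other 3 tested members lay close to equal levels in the 2 hearts. Mir296 had a log2 ratio of 0.10 (95% counting interval -0.33 to 0.54), Mir483 of 0.07 (-0.16 to 0.30) and Mir298 of -0.07 (-0.34 to 0.20). Their adjusted exact binomial p-values were 0.729, 0.653 and 0.689. The signs of Mir296 and Mir483 changed with the scaling. With library sums the ratios of Mir296, Mir483 and Mir298 were -0.12, -0.16 and -0.30, and that of Mir298 passed the test (adjusted exact binomial p = 0.0467). The median over the 4 members was 0.08, beside 0.09 over all tested hairpins, and with library sums -0.14 beside -0.14. With library sums, 39.4% of the hairpins past the test were higher in replicate 2, against 57.8% with TMM.

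**Figure D4:**
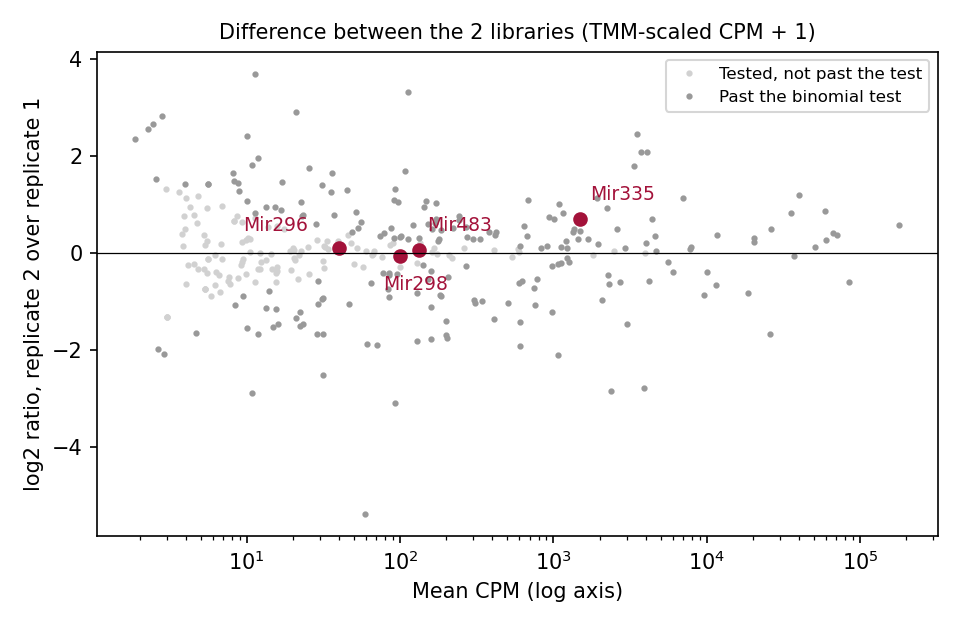
Log2 ratio of replicate 2 over replicate 1 (TMM-scaled CPM plus 1) against mean CPM on a log axis for the 326 tested hairpins, with the 4 tested members in red. Mir335 is at 0.71, and Mir296, Mir483 and Mir298 are at 0.10, 0.07 and -0.07.

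**Figure D5:**
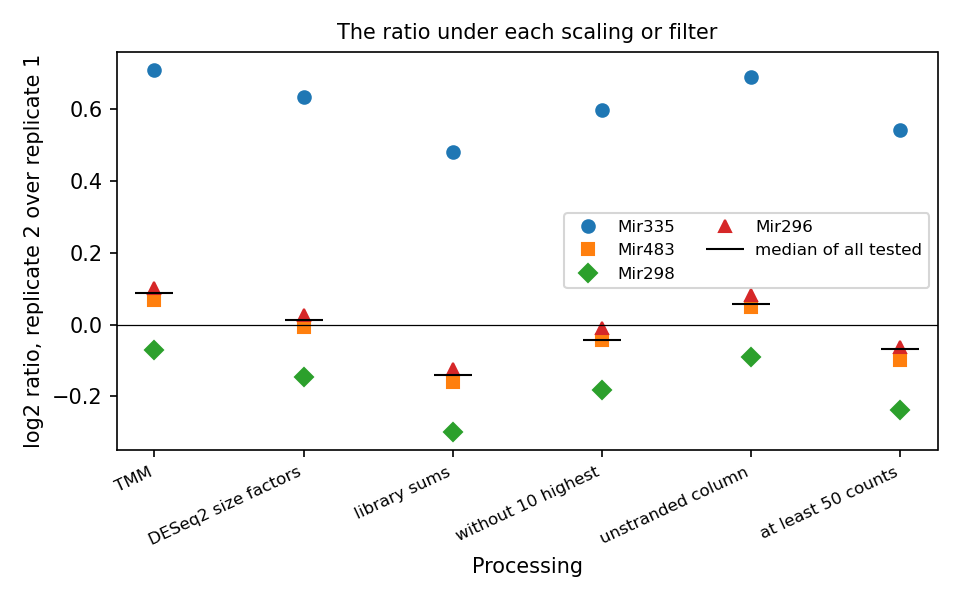
Log2 ratio of replicate 2 over replicate 1 for the 4 tested members (points) and the median of all tested hairpins (dash) under TMM and 5 other ways of scaling, counting or filtering. Mir335 stays between 0.48 and 0.71, Mir298 is below 0 in each, and Mir483 and Mir296 are on either side of 0.

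Some microRNAs known from heart tissue were high in the counts and others were low. The microRNAs of cardiac myosin genes, Mir208a and Mir499, had means of 3741 ± 2999 and 2473 ± 220 CPM, and the endothelial Mir126a had 84520 ± 33330 CPM (SD, n = 2). The muscle microRNAs of the miR-1 and miR-133 families, which are in no marker list here, had few counts. In replicates 2 and 1, Mir1a-1 had 1 and 3 counts and Mir1a-2 had 31 and 94. Mir133a-2 had 7 and 8, and Mir133b had 8 and 8. Several marker hairpins differed between the libraries, and in some lists 1 hairpin gave most of the sum. Higher and lower are meant here for replicate 2, by the binomial test with TMM scaling. That test called 36.2% of all tested hairpins higher and 26.4% lower, a split that changed with the scaling. The heart muscle list (3 of 3 detected) summed to 8291 CPM in replicate 2 and 4440 CPM in replicate 1, of which Mir208a gave 5862 and 1620 CPM. Its other members went the other way in CPM, with Mir499 at 2317 and 2629 and Mir208b at 112 and 191 CPM in replicates 2 and 1, and the median log2 ratio of the list was 0.05. The fibroblast list (2 of 4, with Mir199a-1 at 0 in both) summed to 521 CPM in replicate 2 and 4270 CPM in replicate 1, nearly all of it Mir214, while Mir199b had 28 and 29 counts. Smooth muscle hairpins (2 of 2, both higher by the binomial test) had 48290 CPM in replicate 2 and 29350 CPM in replicate 1. Erythroid hairpins (3 of 3, all lower) had 869 and 1783 CPM, and the endothelial list (1 of 2), Mir126a in effect, had 60950 and 108100 CPM. The liver microRNA Mir122 had 203 CPM in replicate 2 and 22.9 CPM in replicate 1. Leukocyte hairpins (4 of 4) moved in opposite directions, 3 higher and 1 lower, and their sums were 4648 and 4647 CPM. Of these, Mir150 had 2509 CPM in replicate 2 and 1343 CPM in replicate 1, and Mir155 had 1632 and 2981 CPM. Epithelial hairpins (5 of 7) did so too, with 2 higher and 2 lower and sums of 370 and 404 CPM, where Mir203 had 159 and 57.1 CPM and Mir205 had 4 and 238 counts. Reads matching several places entered no count, so low or 0 counts of any of these hairpins need not mean low levels. Such reads are also outside the hairpin sums on which CPM, ranks and shares rest. Of the 6 neuronal hairpins 5 were at 0 in both libraries, and the islet and pituitary list (1 of 3) had 21.4 and 14.6 CPM. The part of these differences in that of Mir335 was not tested.

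Hairpins nearest in level were found by distance in log2(CPM + 1) over the 2 libraries, a measure that describes level only. Nearest to Mir335 were Mir361, Mir676 and Mir98, at distances of 0.19, 0.21 and 0.28, with 1600, 1498 and 1425 CPM in replicate 2 and 1374, 1245 and 1246 CPM in replicate 1. Nearest to Mir483 were Mir338, Mir337 and Mir224 (distances 0.11, 0.16 and 0.21), of which Mir337 belongs to the Dlk1-Dio3 cluster. Nearest to Mir298 were Mir148a, Mir503 and Mir181a-1 (0.15, 0.26 and 0.29), and nearest to Mir296 were Mir374b, Mir196b and Mir193a (0.07, 0.10 and 0.31).

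Few hairpins lay in the other imprinted genes examined. Of 68 imprinted genes listed, 7 overlap a counted hairpin, among them the members' hosts Mest, H19 and Igf2. Beside the members there were 4 such hairpins, of which 0 were detected, against 13.1% of all hairpins, a share at which 4 hairpins say little. Mir489 and Mir653, in the calcitonin receptor gene Calcr, had 0 counts in both libraries. That is below the floor of 3 counts, which is 1.13 CPM in replicate 2 and 1.46 CPM in replicate 1. Mir3099, in Usp29, had 3 and 3 counts, and Gm23134, in Blcap and antisense to Nnat, had 1 in replicate 2 and 0 in replicate 1. Set beside the large clusters, the 5 members with 1979 and 1530 CPM in replicates 2 and 1 had less than the 67 hairpins of Dlk1-Dio3 (6096 and 4923 CPM). The counted reads of the 119 hairpins within Sfmbt2 came to 1254 and 1023 CPM. That cluster is made of repeats, 110 of its hairpins were at 0 in both libraries and 7 were detected. Reads matching several places, 41.6% of replicate 2 and 38.5% of replicate 1, entered no count, so its total may be too low and is not ranked against the members. Mir335 alone was below Mir127, the highest of Dlk1-Dio3 (2751 and 1685 CPM). Mir467d, the highest of Sfmbt2 by counted reads, had 695 and 642 CPM. With TMM, median log2 ratios of tested hairpins were 0.37 in Dlk1-Dio3 and 0.64 in Sfmbt2. They were 0.08 for the members and 0.09 over all tested hairpins. By the binomial test 19 of 43 in Dlk1-Dio3 were higher in replicate 2 and 4 lower, and 7 of 7 in Sfmbt2 were higher. Over all 326 tested hairpins 36.2% were higher and 26.4% lower, a split that changed with the scaling. No difference between these groups was tested.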

How the data were processed

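The values deposited by the authors are raw read counts for each hairpin, not normalized, with separate columns for either strand, the hairpin strand and the opposite strand. Reads were placed on mm10 with GENCODE M21, per the file headers of the deposited text notes. The aligner, counter and their settings are not given in the sources used here, and mature arms were not counted separately. The hairpin-strand column was used. Reads matching several places (41.6% of replicate 2, 38.5% of replicate 1) entered no hairpin count, nor did unmapped reads (11.5% and 14.1%) or reads in no hairpin (5.64% and 6.48%).

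CPM used the sum of the 2202 hairpin rows. Exact (Clopper-Pearson) 95% intervals and floors of 3 counts cover counting error only, since PCR copies were not told apart. The 326 hairpins with at least 10 counts in a library were scaled with TMM (edgeR 4.0.16, R 4.3.3) and compared by a two-sided exact binomial test against the effective library sizes, with Benjamini-Hochberg adjustment over all 326 and a threshold of 0.05. Log2 ratios are of replicate 2 over replicate 1 with a pseudocount of 1 CPM. The spread beyond counting error is edgeR's common dispersion with an intercept-only design. The test was first tried on counts simulated with counting error only. That trial does not cover the spread between libraries beyond counting error. Sequences came from RefSeq, where 5 of 5 members matched, and folds from ViennaRNA 2.7.2.

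Named hairpins were the 5 members, the 3 nearest in level to each detected member, hairpins sharing a seed (none), detected hairpins in listed imprinted genes, the highest of each cluster, and Mir208a, Mir499 and Mir126a. Other markers and undetected listed hairpins were named after their values were seen. Members and lists were chosen with earlier results of these data known. Alternatives covered the unstranded column, totals, DESeq2 1.42.0 size factors, count minimums, pseudocounts, the 10 highest hairpins and each replicate.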

Additional observations from a re-analysis of the deposited data

Results flagged for a closer look

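Reads outside the hairpin counts exceeded the floor of 3 counts. Reads matching several places numbered 2686901 in replicate 2 and 1925044 in replicate 1. Reads in no hairpin numbered 363956 in replicate 2 and 324547 in replicate 1. That they lie above this level does not show that they are unusual. Which of them, if any, belong to the 5 hairpins was not tested.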

How the results depend on the processing

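Levels depend on the total they are divided by. Mean CPM of Mir335, Mir483, Mir298 and Mir296 was 2095, 187, 141 and 56.2 with the unstranded column, 697, 62.3, 46.9 and 18.7 over all mapped reads, and 4830, 421, 315 and 127 over a total without the 10 highest hairpins. Mir675 reached 2.77 CPM with that last total. The share of all 5 hairpins was 0.248%, 0.0826% and 0.570% under the same 3 settings. The members' counts were the same in both columns, so these shifts follow from the totals. Leaving out replicate 1 or 2 gives the other replicate's value, which with n = 2 lies within 1 SD of the mean by construction. Log2 ratios that turned were those of Mir483 (-0.16 with library sums, -0.0075 with DESeq2 size factors, -0.043 without the 10 highest hairpins, -0.035 with at least 1 count and -0.10 with at least 50) and Mir296 (-0.12 with library sums, -0.0016 with at least 1 count, -0.0097 without the 10 highest hairpins and -0.064 with at least 50). None of these passed the test (adjusted exact binomial p from 0.226 to 1.0). Mir298 passed it with library sums alone (-0.30), which made 2 members past the test. The number of hairpins past the test ranged from 165 to 204 over these settings. Of 66 alternative values beside those with a replicate left out, 39 kept their direction and side of the threshold, stayed within 1 SD or, for counts, within 1.5 times. No ratio can be had with a replicate left out. No paired analysis was possible because there is 1 group. Depth limits Mir675, at 1 and 3 counts, most.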
